A study of Pimephales promelas with 20 samples.

Results

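Among the miRNAs of whole fathead minnow larvae, 49 found in the forward table alone varied widely from library to library. The fathead minnow (Pimephales promelas) is a small cyprinid fish of toxicity testing. The 49 were selected on measured values: rows in the forward table and none in the reverse table, a mean of 1 RPM or more over the 20 libraries, and an SD of log2(RPM + 0.5) over 0.8. RPM are counts scaled so that the forward miRNA table of each library sums to 1000000. They were 49 of the 528 miRNAs of that table (9.28%), and 49 of the 384 that met the first criteria without the one on spread. The width of their spread is therefore a description and not a result. A further 2 miRNAs, also in the reverse table, met the limits on level and SD and are not among the 49.

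Control larvae were held without added estrogen and exposed larvae in static water with 10 ng/L of ethinyl estradiol (EE2, the estrogen of contraceptive pills), from 48 h after hatching for 48 h, so that both were 96 h post-hatch when frozen. There were 10 libraries of each, made from total RNA of whole larvae of no stated sex or strain, and the labels do not say how many larvae went into a library or whether they shared a vessel. P-values therefore measure the spread between these libraries, which may in part be technical. In whole larvae, fewer cells of a type and less of a miRNA per cell cannot be told apart.

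miRNAs are cut from hairpin precursors and guide Argonaute proteins to messenger RNAs that match their seed, which are then repressed. Several are often cut from 1 transcript, so miRNAs of such a cluster, or of a single cell type, can rise and fall together. EE2 acts through the estrogen receptors, and in fish it is best known for inducing the egg yolk protein vitellogenin. Every miRNA here carried a numbered identifier that no table at hand pairs with a known miRNA, so families, tissues of origin and target genes cannot be given, and no markers of a tissue could be checked. No sequences of these miRNAs were used here.

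Libraries held 8720142 to 24051404 forward miRNA counts, and for each member the variance between libraries was at least 9.94 times that of counting alone (median 95.5 times), which the limits on level and SD largely fix. Levels ran from 1.01 to 21568 RPM, with 26 members under 10 and 2 at 100 or more, and the SD ran from 0.80 to 3.03 log2 units (median 1.05, against 0.36 in the 335 forward-only miRNAs of the same minimum level that are not members). A total of 30 members had an SD over 1. Just inside the limit were novelMiR_23032 (SD 0.80) and novelMiR_22248 (SD 0.803), and just outside were novelMiR_46790 (SD 0.796) and novelMiR_31797 (SD 0.795). Only 3 of the 92 forward-only miRNAs under 1 RPM had an SD over 0.8.

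**Figure D1:**
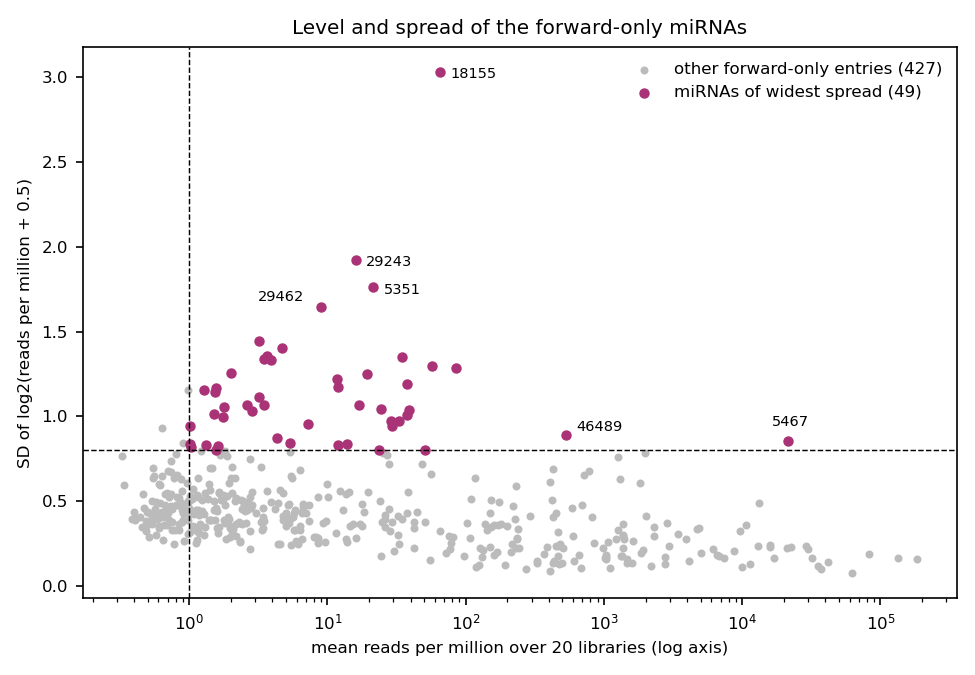
SD of log2(RPM + 0.5) over 20 libraries against mean RPM (log axis) for the 476 forward-only miRNAs, 1 point each; dashed lines mark the limits of 0.8 and 1. The 49 miRNAs of widest spread lie mostly between 1 and 100 RPM, with novelMiR_5467 far to the right at 21568 and novelMiR_18155 highest at an SD of 3.03.

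Many of the members rose and fell as a block. Clustering the 49 on Pearson's r of their log2 levels, cut at 0.6, put 23 into 1 co-varying group (group 1) and 3 into another (group 2). A further 6 formed 3 pairs and 17 stood alone. Of all pairs of the 49, 22.4% had r over 0.6, against 4.44% of the pairs among the 335 forward-only miRNAs of narrower spread. Within group 1 the 253 pairs of miRNAs had a median r of 0.83 over the 20 libraries (0.53 to 0.99). The median was 0.86 in the 10 controls and 0.79 in the 10 EE2 libraries. Among the EE2 libraries, EE2 5 stood apart, with a median deviation of 1.98 log2 units against 0.77 in the next, EE2 6. How far the value in the exposed group rests on EE2 5 was not tested. Clustering the controls alone, a setting added after the data had been seen, gave the same 23, and the EE2 libraries alone kept 21 of them together. With Spearman's rho in place of Pearson's r, the 23 did not stay together, and the largest part held 15 of them. Over all 20 libraries by Pearson's r, no single library carried the block: leaving out 1 gave a mean r from 0.77 (without control 2) to 0.84. All 23 stayed together each time. These correlations share the libraries and the total used for scaling, and they come from values that chose the members.

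**Figure D2:**
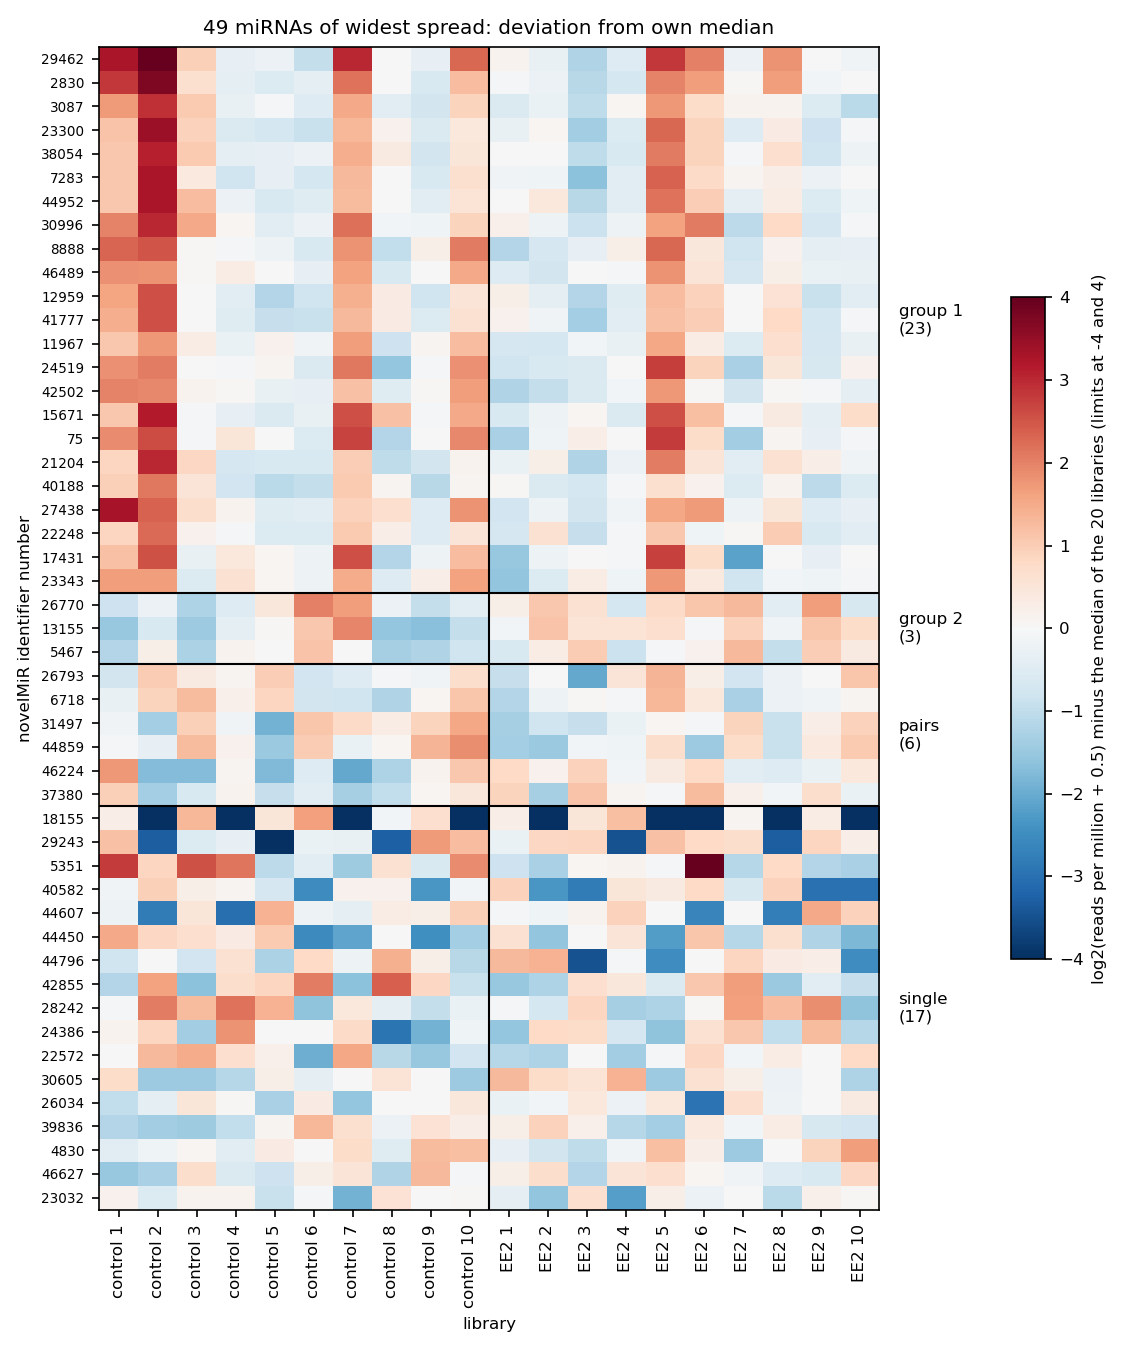
Deviation of each of the 49 miRNAs (rows) from its own median over the 20 libraries (columns), in log2(RPM + 0.5); red is above and blue below, and colours stop at 4 units. The red columns of group 1 are controls 1, 2, 7 and 10 and EE2 5. The dark blue cells of the single miRNAs fall in sets of libraries that differ between miRNAs and in part overlap. Those of novelMiR_18155 include controls 2, 7 and 10 and EE2 5.

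Group 1 was high in 4 control libraries and 1 EE2 library. The median deviation of its 23 members from their own medians was 2.58 log2 units in control 2, 1.98 in EE2 5, 1.59 in control 1, 1.49 in control 7 and 1.23 in control 10. EE2 6 followed at 0.77, EE2 8 at 0.37 and control 3 at 0.29, and the other 12 libraries lay between -0.87 (EE2 3) and -0.03 (control 8). Control 2 and EE2 5 were among the 5 highest libraries for 23 of 23 members, controls 1 and 7 for 22 each and control 10 for 11. Together the 23 made up 0.037% to 0.281% of miRNA counts per library. Their summed level was 424 to 2808 RPM in controls (median 675) and 373 to 2394 after EE2 (median 524), ranges that overlap almost fully.

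The most abundant member of group 1, novelMiR_46489, had 229 to 1243 RPM in controls (median 400) and 211 to 1227 after EE2 (median 316). Its 5 high libraries, controls 1, 2, 7 and 10 and EE2 5, lay between 999 and 1243, and no other library passed 499. The member closest to all others was novelMiR_29462, with a mean r of 0.88 to the other 22 and the widest SD of the group (1.65). It ran from 0.826 to 61.5 RPM in controls (median 3.29) and from 0.628 to 17.9 after EE2 (median 1.98). Next by mean r came novelMiR_2830 (0.86) and novelMiR_3087 (0.85), at means of 3.48 and 2.61 RPM. Mean levels in the group ran from 1.01 to 531 RPM with a median of 11.9. After novelMiR_46489 the highest was novelMiR_17431 at 84.5 RPM, so nearly all of the group lay at low to middle levels.

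A closer cut, at r of 0.8, split group 1 into 15 and 8 members that differed in which libraries came first. The cut was chosen after the data had been seen. In the part of 15, with novelMiR_29462, novelMiR_2830 and novelMiR_3087, control 2 stood at 3.01 log2 units over the median, EE2 5 at 1.98, control 7 at 1.32 and control 1 at 1.13, followed by EE2 6 at 0.93, control 3 at 0.69, control 10 at 0.60 and EE2 8 at 0.59 (medians over the 15). In the part of 8, with novelMiR_46489, novelMiR_8888, novelMiR_17431 and novelMiR_75, the medians over the 8 were 1.63 to 2.04 in controls 1, 2, 7 and 10 and EE2 5, and EE2 6 came next at 0.48. Single members differed: novelMiR_17431 had 106 and 110 RPM in controls 1 and 10 and 275 to 309 RPM in control 2, control 7 and EE2 5. The median r between miRNAs of the 2 parts was 0.74, against 0.89 within the first and 0.94 within the second. In the same libraries control 8 was at 0.10 in the first part and -0.90 in the second, and EE2 1 at -0.09 and -1.19.

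Some members of group 1 followed each other almost exactly. Of all pairs of members, 19 had r over 0.95, and these held 14 miRNAs, all of group 1. The closest were novelMiR_23300 and novelMiR_44952 (r = 0.99), whose count ratio stayed between 0.507 and 0.80 over 20 libraries, and novelMiR_12959 and novelMiR_41777 (r = 0.99), with a ratio between 0.916 and 1.35. No 2 members had identical counts. How reads that match several reference sequences were counted is not given in the sources used here, so members with such close profiles may share reads and are uncertain as separate miRNAs.

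The pattern of group 1 reached beyond the 49. Of the 335 forward-only miRNAs of narrower spread, 39 (11.6%) had r over 0.7 with the mean profile of group 1, and 10 (2.99%) with that of group 2. Closest were novelMiR_5939 (r = 0.92, rho = 0.78, 786 RPM), novelMiR_19083 (r = 0.91, rho = 0.71, 1308 RPM) and novelMiR_32754 (r = 0.91, rho = 0.77, 407 RPM), named after their values were seen. These levels lie in or above the range of group 1, and the SDs were 0.68, 0.63 and 0.61, under the limit for members. In the other direction 3 forward-only miRNAs had r under -0.7, the lowest being novelMiR_39194 at -0.82 (6826 RPM, SD 0.18).

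The TMM scaling factor of edgeR, which adjusts a library for its composition, moved with group 1. The median deviation of the group had r = 0.67 and rho = 0.66 with it (n = 20 libraries; r = 0.62 without the 2 libraries farthest from the median factor). The factor ran from 0.941 to 1.14 in controls (median 1.04) and from 0.896 to 1.03 after EE2 (median 0.967). Scaled with these factors, the 23 stayed 1 group. The factors come from the same counts as the levels, so they are not an independent measure. With the median deviation of group 2 the factor had r = -0.43 and rho = -0.38. For group 1, the reverse miRNA counts as a percentage of the forward ones gave r = 0.31 and rho = 0.38. With the number of forward miRNA counts, r was 0.17 and rho 0.17, and with the piRNA counts per 100 miRNA counts r was 0.20 and rho 0.18 over the 15 libraries with piRNA counts. The part of these measures in the pattern was not tested.

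Group 2 held the most abundant of the 49 and 2 members with means under 2 RPM. novelMiR_5467 ranked 12 by mean level among all 528 miRNAs, at a mean of 21568 RPM, and took 0.792% to 4.97% of counts together with its 2 companions, nearly all of it its own. It had 7922 to 44273 RPM in controls (median 15625) and 10403.5 to 49685 after EE2 (median 23615). Controls 1, 3, 8 and 9 were lowest, at 7922 to 8868, and EE2 7, control 6, EE2 3 and EE2 9 highest, at 39644 to 49685. novelMiR_26770 ran from 0.146 to 5.69 RPM in controls and from 0.443 to 4.44 after EE2, and novelMiR_13155 from 0.0573 to 6.42 and from 1.12 to 3.4. The 3 had a mean r of 0.76 over all libraries, 0.83 in controls and 0.59 after EE2. Group 2 followed an order of libraries unlike that of group 1, with r = -0.10 and rho = -0.28 between the median deviations of the groups. Control 7 was the only library over 1 in both, at 1.49 and 1.68. In group 2 this value came from the 2 rare members, while novelMiR_5467 had 19654 RPM in control 7, near its median of 20030.

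**Figure D3:**
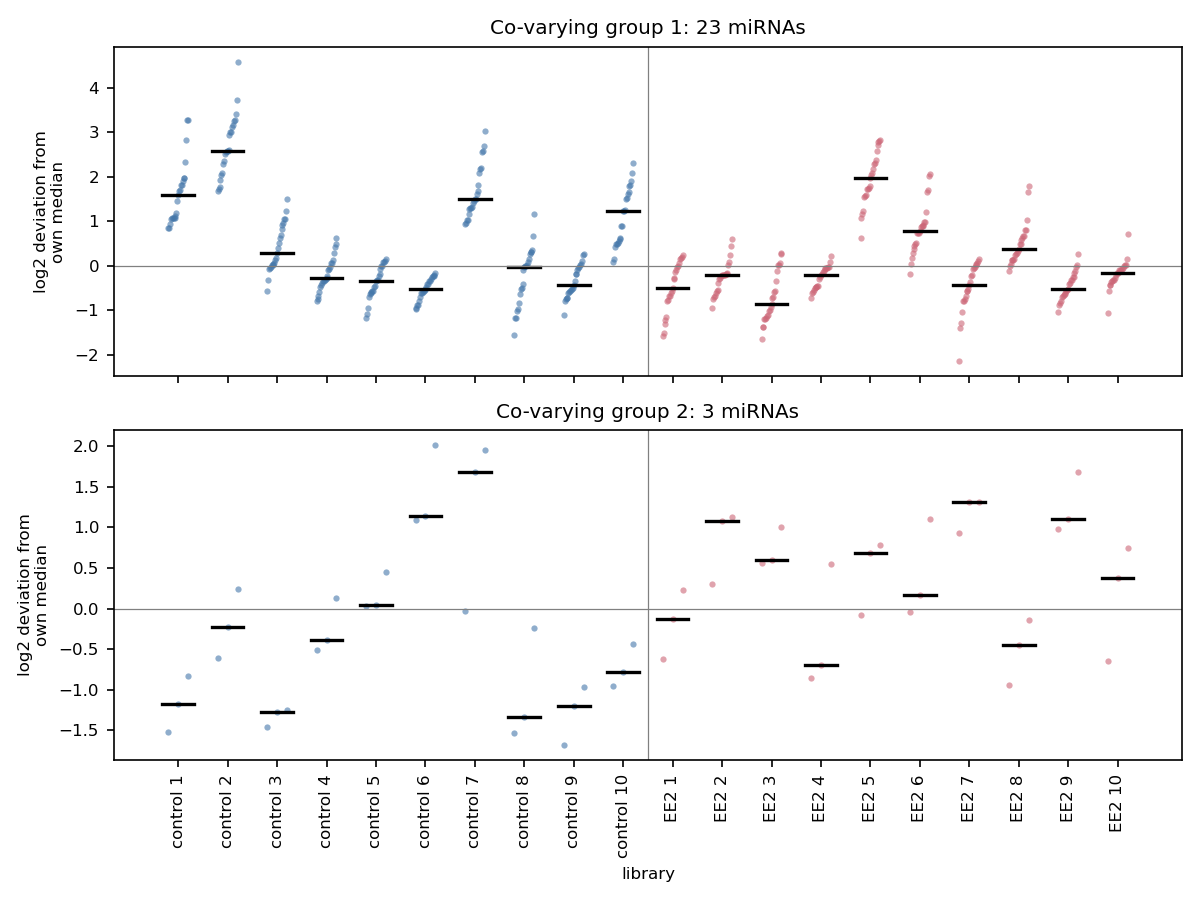
Deviation of each member of group 1 (top) and group 2 (bottom) from its own median, in log2(RPM + 0.5), in each library; points are miRNAs, black bars their median, blue controls and red EE2 libraries. In group 1 the medians of controls 1, 2, 7 and 10 and EE2 5 lie at 1.23 to 2.58 and no other library passes 0.77. The medians of group 2 run from -1.34 (control 8) to 1.68 (control 7).

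Outside the groups, 3 pairs of members varied together. novelMiR_31497 and novelMiR_44859 had r = 0.83 (0.87 in controls, 0.77 after EE2). novelMiR_46224 and novelMiR_37380 had r = 0.79, but 0.96 in controls and 0.43 after EE2. For novelMiR_26793 and novelMiR_6718 r was 0.65. Of the 253 pairs among the 23 members outside the groups, only 5 had r over 0.6, and the median was -0.01, so most of these miRNAs did not vary together.

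Bimodal levels were found in 11 of the 49 members (22.4%). A member was called bimodal when the widest gap between neighbouring levels was at least 1 log2 unit and at least 25% of the range, with 3 or more libraries on each side. Over the 429 miRNAs with 1 RPM or more, 2.56% met this rule, and of the 335 forward-only miRNAs of narrower spread 0% did. A narrow spread leaves little room for such a gap, so the comparison describes and does not test. Of the 11, 6 belonged to group 1 and 5 stood alone. The gap of novelMiR_46489 was at the limit (1.00), and it was no longer called with a pseudocount of 1 or with TMM factors. With a pseudocount of 1, novelMiR_15671 and novelMiR_44450 were also lost, and with TMM factors novelMiR_75.

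novelMiR_18155 had the widest gap, with no library between its 2 levels. It ran from 0.632 to 223 RPM in controls (median 76.5) and from 0.481 to 166 after EE2 (median 40.1). In 9 libraries it had 0.481 to 3.04 RPM (6 to 73 reads), in 11 it had 66.3 to 223 (578 to 3005 reads), a step of 21.8 times. The low side held controls 2, 4, 7 and 10 and EE2 2, 5, 6, 8 and 10, so 4 of 10 controls and 5 of 10 exposed libraries were low.

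novelMiR_44607 was low in a part of the same libraries. It had 0.0573 to 0.216 RPM (1 to 4 reads) in controls 2 and 4 and EE2 6 and 8, and 2.95 to 12.2 (37 to 186 reads) in the other 16, a step of 13.6 times. All 4 of its low libraries were low in novelMiR_18155 too, while 5 libraries were low in novelMiR_18155 alone. It was the member closest to novelMiR_18155, at r = 0.51 and rho = 0.37. The member most opposite to novelMiR_18155 was novelMiR_15671 of group 1, at r = -0.61 and rho = -0.57. Of the 9 libraries low in novelMiR_18155, 4 were on the high side of novelMiR_8888, also of group 1, and 5 on its low side. A further 1 library was high in both.

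novelMiR_29243 had few reads in a different set. Controls 2, 5 and 8 and EE2 4 and 8 had 0.122 to 0.917 RPM (2 to 21 reads), and the other 15 had 8.82 to 43.8 (118 to 765 reads), a step of 9.62 times. Between 8.82 and 10.8 RPM lay controls 3, 4, 6 and 7 and EE2 1. The next library, EE2 10, had 15.6. Of the 5 libraries low in novelMiR_29243, 2 were low in novelMiR_18155.

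novelMiR_40582 and novelMiR_44450 were low in overlapping sets of libraries. novelMiR_40582 had 0 to 5 reads (0 to 0.287 RPM) in controls 6 and 9 and EE2 2, 3, 9 and 10, and 1.96 to 7.16 RPM in the other 14. For EE2 9 and EE2 10, which had 0 reads, 3 reads would be 0.218 and 0.241 RPM, the limits that a count of 0 allows. novelMiR_44450 had 0.184 to 1.30 RPM in 9 libraries and 3.39 to 10.9 in 11. Of the 6 libraries low in novelMiR_40582, 5 were low in novelMiR_44450 as well, EE2 3 being the exception, and r between the 2 was 0.57 (rho = 0.50). No library was low in both novelMiR_40582 and novelMiR_44607, nor in both novelMiR_40582 and novelMiR_29243.

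The 6 bimodal members of group 1 split along the block described above. novelMiR_8888, novelMiR_75, novelMiR_42502 and novelMiR_46489 had the same 5 libraries on the high side, controls 1, 2, 7 and 10 and EE2 5. novelMiR_17431 and novelMiR_15671 had 3 of these on it, controls 2 and 7 and EE2 5. The gap was 2.56-fold on the scale of RPM plus 0.5 for novelMiR_8888 and 2.00-fold for novelMiR_46489, far narrower than the 18.9-fold of novelMiR_18155.

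**Figure D4:**
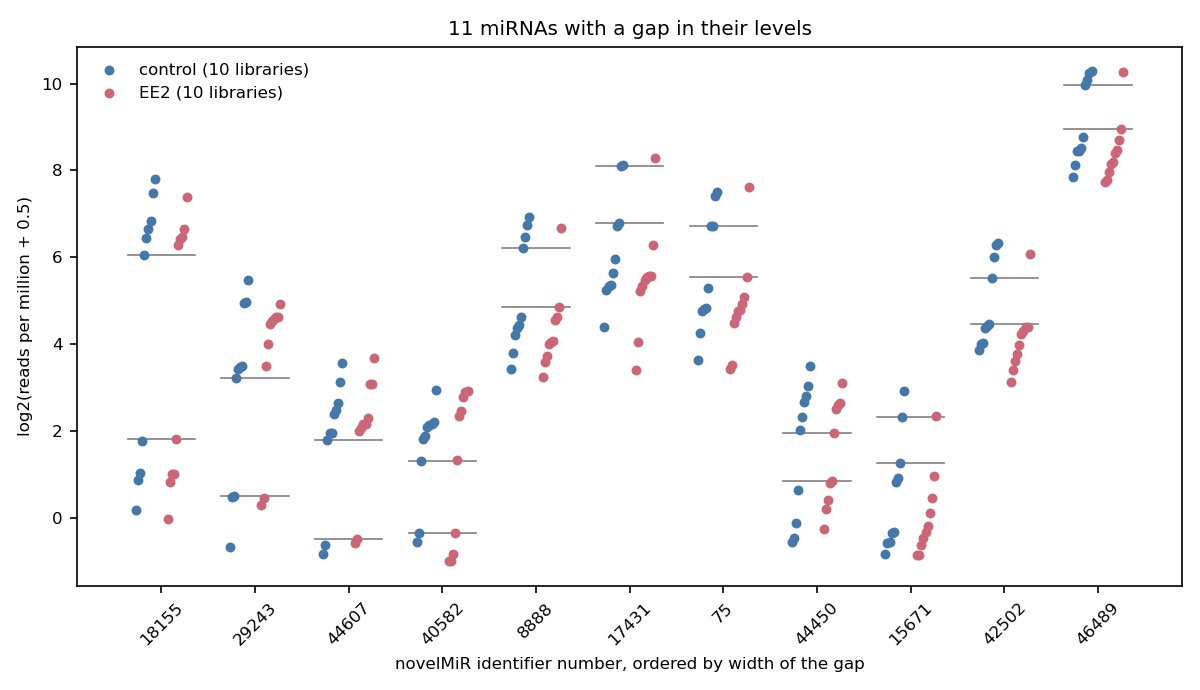
Log2(RPM + 0.5) of the 11 bimodal miRNAs in 10 control (blue) and 10 EE2 (red) libraries, 1 point per library; grey lines mark the edges of the widest gap. Both colours stand on both sides of each of the 11 gaps: novelMiR_18155 is low in 4 controls and 5 EE2 libraries, and the 6 members of group 1 are high in 1 EE2 library, EE2 5.

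Other single members were spread without meeting the rule for bimodal levels. novelMiR_5351 had 1.79 to 42.1 RPM in controls (median 9.83) and 2.00 to 230 after EE2 (median 4.21). The value of 230 was EE2 6, and the next exposed library had 10.3. The controls alone were spread over 23.5-fold. novelMiR_44796 had 2.26 to 4.99 RPM in EE2 3, 5 and 10 and 12.3 to 81.5 in the other 17. Its gap of 1.22 log2 units was only just under 25% of its range, the 1 part of the rule it missed, and that share was not varied. All of its low libraries were exposed ones, while its log2 fold change was 0.19 ± 0.54 (SE; edgeR adjusted p = 0.945). novelMiR_42855 ran from 0.421 to 14.6 RPM without a gap of 1 log2 unit.

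Exposure to EE2 was not found to change the level of any of the 49. edgeR's quasi-likelihood test over the whole forward table called 0 of the 47 members that passed its filter on low counts at an adjusted p of 0.05, and 0% of all 478 miRNAs tested. At an unadjusted p under 0.05 there were 0 members, against 5.02% of the 478 (2.72% higher and 2.3% lower after EE2). DESeq2 called 0 members after adjustment and 4 without it, and limma voom 0 and 2. Of all 478 miRNAs, 26 and 23 had an unadjusted p under 0.05 in these 2 fits. novelMiR_15671 and novelMiR_30996 did not pass the filter. In a fit without it, 0 of 49 members were called, and 0 had an unadjusted p under 0.05, against 23 of all 528 miRNAs. The ranges of control and EE2 libraries overlapped for all 49. The difference between the groups held a median of 4.48% of a member's variance of log2 levels (0.0342% to 25.9%). Neither the overlap nor this share is given here over all miRNAs, so neither can be read as particular to the members.

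The wide spread left these tests with little precision. Standard errors of the members' log2 fold changes ran from 0.32 to 1.06 with a median of 0.55, against 0.21 over all 478 miRNAs. For 4 of 47 members the interval of 2 standard errors each way lay within a 2-fold difference, against 397 of 478. For the other 43, the interval held a 2-fold difference in at least 1 direction.

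The members with the smallest p values pointed both ways. novelMiR_37380 had 0.888 ± 0.737 TMM-scaled RPM (CPM) in controls and 1.79 ± 1.12 CPM after EE2 (SD, n = 10 each), a log2 fold change of 0.97 ± 0.48 (SE; edgeR quasi-likelihood p = 0.0567, adjusted p = 0.721). Of 10 EE2 libraries, 9 exceeded the median of the controls. The next 4 were all of group 1 and lower after EE2. novelMiR_42502 averaged 35.1 ± 23.6 CPM in the control libraries and 20.8 ± 16.4 CPM in the exposed ones (SD, n = 10 each). Its log2 fold change was -0.76 ± 0.39 (SE; edgeR quasi-likelihood p = 0.0657, adjusted p = 0.721), with 8 of 10 EE2 libraries under the median of the controls. For novelMiR_27438, novelMiR_3087 and novelMiR_29462 the log2 fold changes were -1.30 ± 0.68, -0.97 ± 0.55 and -1.33 ± 0.75 (SE; edgeR adjusted p = 0.721 for each). None of the 5 passed.

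The estimates for group 1 lay on 1 side, and their size moved with a single exposed library. All 21 tested members had a log2 fold change below 0 (20 of 21 with limma voom), with a median of -0.60, while 47.5% of the 478 miRNAs were below 0 and their median was 0.01. The 21 move together and are not independent of each other, and none had an unadjusted p under 0.05. Without EE2 5, the 1 exposed library with high levels, the median was -1.11, and 15 of 21 had an unadjusted p under 0.05, all lower after EE2, against 10.5% of the 484 miRNAs then tested (8.47% lower). The smallest adjusted p was 0.346, so 0 passed. Without control 2, in which the group was highest, the median was -0.30 and 17 of 21 were below 0. The 3 members of group 2 were estimated higher after EE2, at 0.44 to 0.77 (SE 0.36 to 0.61). For novelMiR_13155 all 10 EE2 libraries exceeded the control median, with 0.77 ± 0.61 (SE; edgeR adjusted p = 0.789) and 0.63 to 1.93 over the fits run. The same held for all 10 in novelMiR_46224, outside the groups, with a log2 fold change of 0.50 ± 0.51 (SE; edgeR adjusted p = 0.855). Both control medians were low, at 0.54 RPM for novelMiR_13155 and 1.53 RPM for novelMiR_46224, with as few as 1 and 7 reads in a control. How many of all 478 miRNAs had all 10 EE2 libraries above the control median is not given here, so these counts cannot be read against it. novelMiR_5467 had 17288 ± 12135 CPM in controls and 26461 ± 13718 CPM after EE2 (SD, n = 10 each; edgeR quasi-likelihood p = 0.10, adjusted p = 0.746).

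**Figure D5:**
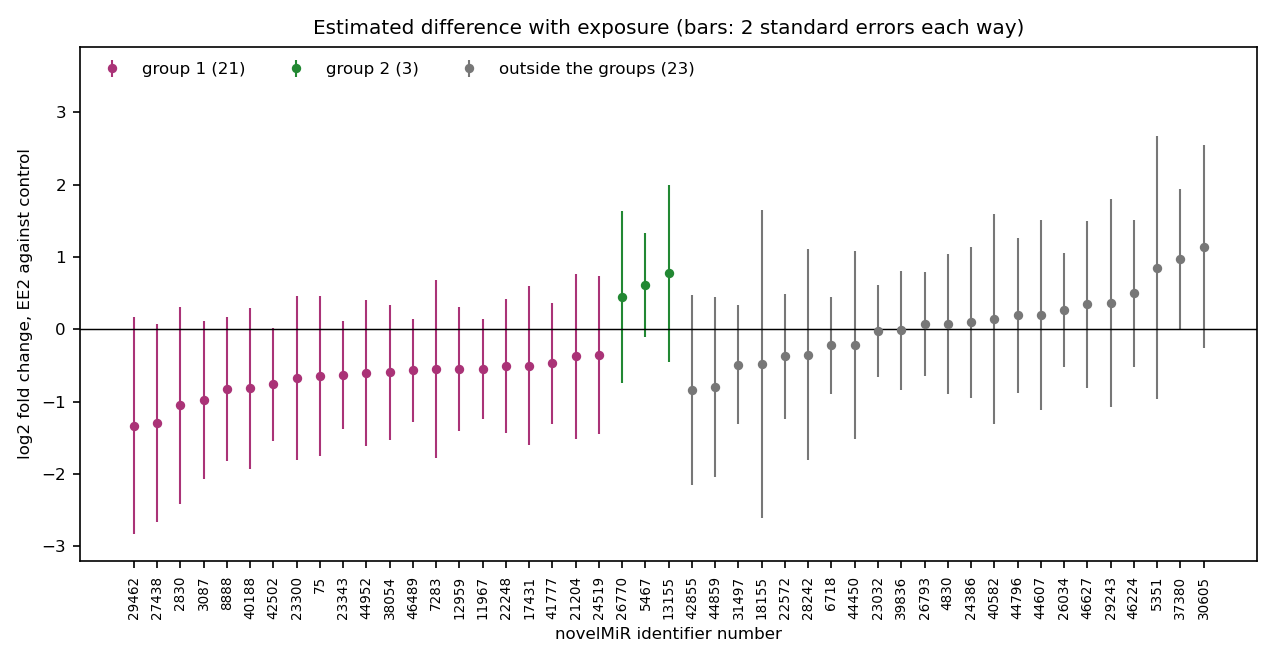
Log2 fold change of EE2 against control for the 47 members tested, with bars of 2 standard errors each way; members are ordered by group and estimate. The 21 members of group 1 lie between -1.33 and -0.35, the 3 of group 2 between 0.44 and 0.77, and the 23 others on both sides of 0; none passed the adjusted threshold.

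The 5 bimodal members outside the groups did not separate by exposure either. Those of group 1 were less even. novelMiR_46489, novelMiR_8888, novelMiR_75 and novelMiR_42502 were high in 4 controls and 1 EE2 library, and novelMiR_17431 and novelMiR_15671 in 2 controls and 1 EE2 library. Outside the groups the estimates were as follows. novelMiR_18155 had a log2 fold change of -0.48 ± 1.06 (SE; edgeR adjusted p = 0.941), novelMiR_29243 of 0.37 ± 0.72 (adjusted p = 0.927), novelMiR_44607 of 0.20 ± 0.65 (adjusted p = 0.945), novelMiR_40582 of 0.15 ± 0.72 (adjusted p = 0.971) and novelMiR_44450 of -0.22 ± 0.65 (adjusted p = 0.945). Each interval of 2 standard errors holds a 2-fold difference either way. For novelMiR_5351 edgeR gave 0.85 ± 0.91, although 8 of 10 EE2 libraries were below the control median. Without EE2 6 it was -1.74, and DESeq2, which replaced a count it took as an outlier, gave -1.67 (adjusted p = 0.258, where its fits ranged from 0.258 to 0.986).

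No difference in how widely the members varied with exposure was detected, by a test of low precision. The absolute deviation of each log2 level from the median of its own group was compared with limma over the 478 miRNAs, and 0 members and 0% of all miRNAs passed at an adjusted p of 0.05. Standard errors of the members' differences ran from 0.17 to 0.75 log2 units, with a median of 0.28, while their deviations in controls had a median of 0.91, so an absence of differences cannot be read from it. At an unadjusted p under 0.05 there were 3 members of 47, against 3.97% of all miRNAs. All 3 had the smaller deviation after EE2. Of all 478 miRNAs, 14 (2.93%) had such a p with the smaller deviation after EE2, and 5 (1.05%) with the larger. novelMiR_46224 had a mean absolute deviation of 1.11 log2 units in controls and 0.45 after EE2 (difference -0.66 ± 0.22 SE, limma p = 0.00746, adjusted p = 0.896). Controls ran from 0.369 to 11.5 RPM and EE2 libraries from 2.00 to 6.28, inside the range of the controls. novelMiR_13155 had 0.92 and 0.38 (limma p = 0.0447, adjusted p = 0.896), and novelMiR_40188 had 0.85 and 0.44 (limma p = 0.0457, adjusted p = 0.896). The largest estimate in the other direction was that of novelMiR_40582, with 0.74 in controls and 1.52 after EE2 (difference 0.78 ± 0.40 SE, limma p = 0.067, adjusted p = 0.896). Of the 47 members, 37 had a smaller estimate after EE2, all 21 of group 1 among them, where 64.4% of all 478 miRNAs did. With 4 of the 5 high libraries of group 1 in the controls, these 21 estimates share the same few libraries. Without EE2 5 there were 7 members with an unadjusted p under 0.05. The share of all miRNAs at that p in this fit is not given here, so the 7 cannot be read against it.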

How the data were processed

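Reads were matched to miRNAs already described in the species and to piRNAs of zebrafish, per the labels. Among tools, the submitters' processing notes list edgeR 3.26.8, limma 3.40.6, Bowtie 1.2.3 and bcl2fastq 2.19.1, while allowed mismatches and the handling of reads with several matches are not given there. The authors deposited unnormalized counts of reads for 528 forward and 57 reverse miRNAs. F and R in their names were taken as strands, which no label states. 0 of the 49 identifiers matched a symbol of the reference gene table.

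Exposure was tested with edgeR 4.0.16 (R 4.3.3) on the whole forward table: filterByExpr (minimum count 10), TMM factors, robust quasi-likelihood, Benjamini-Hochberg adjustment over 478 entries, threshold 0.05. SEs come from the F statistic. DESeq2 1.42.0 and limma 3.58.1 (voom) were alternatives, and limma tested the spread. Clustering used average linkage (scipy 1.17.1). The fits and the clustering were tested on simulated data. No 2 libraries were alike beyond r = 0.993 (log2 levels, 478 entries). The library protocol (TruSeq Small RNA) describes no molecular identifiers, and limits from a count of 0 cover counting error only.

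The members and rules were chosen with earlier results of these data known. Named were members of the highest level, widest spread, largest gap, closest fit to a group, smallest p and nearest to the limits; any other is given for a count of few or as an example seen afterwards.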

Additional observations from a re-analysis of the deposited data

Results flagged for a closer look

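In 50 groups of 10 libraries (the named members and the 2 co-varying groups, in controls and in EE2 libraries), 5 held a library set apart from the rest by more than Dixon's 95% value, where chance gives about 2.5. Members were chosen for wide spread, and 4 of the 5 belong to group 1, so their number cannot be read against chance. All values are log2(RPM + 0.5). In EE2 5, novelMiR_46489 was at 10.26 against 8.96 in the next EE2 library, novelMiR_75 at 7.61 against 5.55, novelMiR_8888 at 6.69 against 4.85 and novelMiR_42502 at 6.08 against 4.39. In EE2 6, novelMiR_5351 was at 7.85 against 3.43.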

How the results depend on the processing

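The count of members called was 0 under every alternative run, for level and for spread, including the fits with a replicate block, by which 3 and 4 members had an unadjusted p under 0.05. In the block fit for level, 14 of all 478 miRNAs had such a p. The shared replicate numbers gave no sign of pairing over the 478 tested miRNAs: same-numbered libraries had correlations of deviations from -0.449 to 0.274, 2 of 10 over 0.1. Over the 49 members they ran from -0.507 to 0.614 (median -0.004), 3 of 10 over 0.1. By the members, 2 controls correlated best with the EE2 library of their own number, and 0 did over the 478. Without 1 library, 0 to 15 members had an unadjusted p under 0.05 for level (15 without EE2 5, 0 to 3 otherwise) and 1 to 7 for spread (7 without EE2 5). For level, 14 to 51 of all miRNAs tested had such a p (51 without EE2 5). For spread, the counts over all miRNAs in the block fit and in these refits are not given here. A minimum mean of 5 RPM left 26 of the 49 members. A pseudocount of 1 left 36 and TMM factors 44, all of them members. With the scaled median absolute deviation in place of the SD, 37 of 42 were members. Without 1 library the rule gave 45 to 55 miRNAs, of which 42 to 49 were members. A gap of 1.5 left 4 bimodal members (novelMiR_18155, novelMiR_29243, novelMiR_44607 and novelMiR_40582), and other settings gave 8 with a pseudocount of 1, 9 with TMM factors and 12 with 2 libraries a side. Members in co-varying groups numbered 23 to 36. Group 1 kept its 23 members at cuts of 0.5 and 0.7, and with Spearman's rho, as at 0.8, 15 of them formed the largest part. Group 2 kept its 3 members at 0.5, at 0.7 and with Spearman's rho, and was no longer a group at 0.8. Its 3 members also stayed together in the controls alone. In the EE2 libraries alone, 2 of them fell in a group of 4. Of 23 named members, 5 changed direction in some of 575 refits, none of them called; the cause was not tested. The log2 fold change of novelMiR_5351 (0.85) became -1.67 with DESeq2, -0.62 with limma voom and -0.99 with the replicate block, and ran from -1.74 to 1.05 without 1 library. That of novelMiR_40582 (0.15) became -0.80 with limma voom and -0.52 with the replicate block, and ran from -0.15 to 0.32. For novelMiR_44450 (-0.22) it was 0.15 with limma voom and ran from -0.49 to 0.0024. It ran from -0.096 to 0.49 for novelMiR_44607 and from -0.19 to 0.076 for novelMiR_23032.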
